A study of Mus musculus with 15 samples.

Results

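The genes described here encode the nuclear lamina and the proteins that anchor it in the nuclear envelope. They were chosen by gene symbol, as genes tied to the lobulation of the neutrophil nucleus; the rule uses no measured value. The 10 members are the lamin genes Lmna, Lmnb1 and Lmnb2, the lamin B receptor gene Lbr, the inner nuclear membrane genes Emd and Tmpo, the chromatin linker gene Banf1, and Sun1, Sun2 and Syne1 of the bridge to the cytoskeleton. All 10 were found among the 14801 genes of the table, and all 10 were among the 14161 genes tested, the genes whose log2 CPM exceeded 0 in 3 or more libraries of 15. CPM is a gene's read count scaled to a fixed library size, so that libraries of unequal depth can be compared.

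The lamina is a meshwork of A-type lamins (from Lmna) and B-type lamins (from Lmnb1 and Lmnb2) under the inner nuclear membrane. Lamin B receptor binds B-type lamins and heterochromatin and is also a sterol reductase; its loss in humans and mice leaves neutrophil nuclei without their normal lobes, as in the Pelger-Huët anomaly. Granulocytes are known for little lamin A and much lamin B receptor, and the SUN proteins and nesprins (Syne1 encodes nesprin-1) join the lamina to actin and microtubules across the envelope.

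Messenger RNA of 5 cell populations, taken from the marrow of healthy mice by cell sorting, was sequenced as 3 libraries per population. The labels name the populations CMP, CD115plusGMP, PreNeut_Neutrophil, ProNeut_Neutrophil and Neutrophil; the third and the fourth are called PreNeut and ProNeut below. No strain, age, treatment or genotype is given for any group. Nothing in the labels ties the 3 libraries of a group to separate animals. The p-values therefore rest on differences among libraries that could be purely technical.

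The libraries form 2 sets that follow the groups. The first set holds CMP, CD115plusGMP and Neutrophil, with 810794 to 1444403 reads per library over the genes of the table, and the second holds PreNeut and ProNeut, with 7493694 to 68171606. The value given to 0 reads ranged from -1.31 to 0.63 across first-set libraries and from -8.14 to -4.90 across the others, so log2 levels were compared only within a set. Across sets, set and group cannot be told apart. The sets also differ in which strand's genes took the reads. Mitochondrial ND6, which lies on the strand opposite to the other mitochondrial protein genes, took 69.1% to 93.3% of the reads of those 13 genes in CMP, CD115plusGMP and Neutrophil libraries, but 0.154% to 0.230% in PreNeut and ProNeut libraries. Among the members, Lbr shares 440 exon bases with Dnah14, an axonemal dynein gene on the opposite strand. Lbr had 211 reads and Dnah14 560 in the first set, against 80483 and 21 in the second. Genes without a symbol took 55.6% to 69.5% of first-set reads and 0.102% to 0.146% of second-set reads. By the ND6 and Dnah14 values, first-set reads were mainly on the opposite-strand gene of those pairs. Sun1, Sun2 and Tmpo share 302, 147 and 244 exon bases with opposite-strand genes that were not analysed here (4930520M14Rik, Gm16575 and Gm26765), and for Lmna, Lmnb1, Lmnb2, Emd and Syne1 no such overlap of 50 bases or more is annotated. First-set values are therefore given as reads at a locus, and for single members the strand was not measured. As a check of the labels, 12 late granule and mature neutrophil genes had a summed CPM of 11410 to 39350 in Neutrophil, 78030 to 125200 in PreNeut and ProNeut, and 28.2 to 91.0 in CMP and CD115plusGMP.

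The 250 bases before a RefSeq start are shown for 3 members. Lbr, the receptor gene, and Sun2 carried differences described below. Sun1 is shown as the alternative inner membrane anchor to Sun2, and none of its differences passed in the fit of all 15 libraries. The stretches are RefSeq sequences of GRCm38.p6, taken at the most upstream start in the promoter table used. For Sun1 and Sun2 that start is also the 5′ end of the GENCODE gene, while for Lbr it lies 645 bases inside it. For Lmna it lies 6604 bases inside the GENCODE gene, so that window is not shown. Capitals mark matches, on either strand, to the CCAAT box (CCAAT), the GC box (GGGCGG), the TATA box (TATAAA), the E box (CACGTG), the cell cycle homology element (TTTGAA) and an ETS core (AGGAAG). Adjoining or overlapping matches run together.
Lbr, chr1:181842402-181842651, minus strand: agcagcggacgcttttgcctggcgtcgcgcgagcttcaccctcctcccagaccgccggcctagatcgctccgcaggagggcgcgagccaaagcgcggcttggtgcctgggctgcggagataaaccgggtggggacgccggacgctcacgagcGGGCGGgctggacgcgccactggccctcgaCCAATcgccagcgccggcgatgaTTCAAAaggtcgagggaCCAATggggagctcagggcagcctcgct
Sun1, chr5:139200387-139200636, plus strand: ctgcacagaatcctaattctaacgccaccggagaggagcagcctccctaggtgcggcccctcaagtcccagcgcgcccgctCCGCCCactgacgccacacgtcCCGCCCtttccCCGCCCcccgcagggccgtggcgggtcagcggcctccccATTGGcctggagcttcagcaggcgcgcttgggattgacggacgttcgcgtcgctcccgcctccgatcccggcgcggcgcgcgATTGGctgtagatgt
Sun2, chr15:79742537-79742786, minus strand: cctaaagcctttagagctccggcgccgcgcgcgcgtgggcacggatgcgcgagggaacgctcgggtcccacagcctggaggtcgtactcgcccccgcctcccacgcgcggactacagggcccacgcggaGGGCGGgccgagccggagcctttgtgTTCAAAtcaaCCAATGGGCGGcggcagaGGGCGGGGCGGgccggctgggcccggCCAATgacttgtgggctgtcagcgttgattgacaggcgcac

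A window was given for 9 members, and the GC box was found in 9 of these 9, against 32.7% of all 32851 mouse windows of this length. In 5 of the 9, Lbr, Lmna, Syne1, Tmpo and Banf1, the start lies inside the GENCODE gene, and the Banf1 window is all exon. The GC content of the 9 windows was 51.2% to 70.8%, against a median of 52.4% over all windows, and how far the letter matches follow it was not tested. The CCAAT box was found in 6 of 9 against 33.8%. The windows of Lbr and Sun2 also held the TTTGAA letters, which 16% of all windows held, and the TATA and E box letters were in none of the 9 (12.4% and 6.0% of all windows). The windows of Lbr, Sun1 and Sun2 held 31, 30 and 31 CpG dinucleotides. A match is a description of letters and not a binding site.

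The comparison of ProNeut with PreNeut, the sorted progenitor subsets of the second set, asks whether envelope genes differ between them. Lbr, both B-type lamin genes and the SUN and nesprin genes were at like levels, and the lamin A gene Lmna had at most 29 reads in any library. The Lmna difference, ProNeut minus PreNeut, was 3.5 ± 0.91 on the log2 scale (SE, n = 3) and did not pass (limma, adjusted p = 0.056). In total 0 of 10 members were called, where a call needs a difference of 1 log2 unit or more together with an adjusted p below 0.05, and 2.26% of all genes tested were (1.84% higher and 0.417% lower). The median difference of the members was -0.12, against 0.07 over all genes. At an unadjusted p under 0.05 in the fit of all 15 libraries, 1 member differed. With only the 6 libraries of the second set in the fit, 1 member was called, Lmna, and 6.38% of all genes. In that fit Syne1 was higher in ProNeut at an unadjusted limma p of 0.04998 (95% interval 2.69e-05 to 0.52, adjusted p = 0.15) and was not called.

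Lmna, at chr3:88480147-88509956 on the minus strand (GRCm38, as for all positions below), encodes lamins A and C. It had 9, 3 and 1 reads in PreNeut replicates 1 to 3, or log2 CPM values of -1.51, -2.86 and -6.56. In ProNeut it had 10, 19 and 29 reads, or -0.51, -0.11 and 0.19. All 3 ProNeut libraries were above all 3 PreNeut libraries, as for 36.0% of genes in either direction, and the lowest PreNeut value came from the deepest library. Summed and scaled to library size, 58 reads against 13 gave a ratio of 14.0 (95% interval 7.58 to 27.8, counting error only). The fitted difference was 2.04 without PreNeut replicate 3 (adjusted p = 0.13) and 4.57 without PreNeut replicate 1, where it was called (adjusted p = 0.0071). With quantile normalization it was 1.39 (adjusted p = 0.29).

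Markers of other cells differed as well. The summed CPM of the 11 erythroid genes in the table was 78.0 to 86.7 in ProNeut and 47.6 to 68.9 in PreNeut, with 5 of 11 called higher. Their median difference was 3.45, and 10 of 11 were above 0. Tfrc went the other way, at -0.63 and not called, and weighs most on the sum in PreNeut. It had 11171 reads there, against 649 for Car2, which was called higher (3.28). The summed CPM of 4 stroma and endothelium genes was 6.96 to 7.62 against 3.27 to 3.91, and 0 of the 3 tested were called. That of 3 T and NK cell genes was 3.21 to 5.25 against 21.6 to 29.3, where Nkg7 was called lower and Cd3d higher. That of 14 monocyte and macrophage genes overlapped, at 322 to 376 against 353 to 396. That of 5 basophil genes was 1.67 to 2.05 against 26.2 to 30.2, with 4 of 4 tested called lower. Of these lists' genes only the basophil gene Fcer1a was at 0 reads in a whole group, ProNeut. Their part in the Lmna values was not tested. In bulk libraries fewer cells of a type and less RNA per cell cannot be told apart.

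Lbr, at chr1:181815335-181843046 on the minus strand, had a log2 CPM of 8.25, 8.16 and 8.32 in PreNeut and 8.30, 8.29 and 8.37 in ProNeut. These libraries overlapped, and the difference was 0.08 ± 0.55 (SE, n = 3; limma adjusted p = 1.0). Within each library Lbr stood at the 99 to 99.2 percentile of the genes tested. Lmnb1, which encodes lamin B1, was at 7.51, 7.35 and 7.54 in PreNeut and at 7.24, 7.4 and 7.32 in ProNeut. The level of the lamin B2 gene Lmnb2 was 5.97 ± 0.11 (SD, n = 3) and 5.82 ± 0.05. Both lamin genes overlapped between the subsets.

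The LEM-domain genes and their partner showed the same pattern of overlap. Tmpo encodes LAP2, a lamin- and chromatin-binding family, and was at 7.98 ± 0.10 in PreNeut and 7.85 ± 0.16 in ProNeut (SD, n = 3). Emd, the emerin gene on the X chromosome, was at 5.0 ± 0.15 and 4.84 ± 0.10. Banf1 encodes BAF, the small DNA-binding protein that LEM domains hold, and was at 5.16 ± 0.17 and 5.06 ± 0.22.

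The genes of the bridge to the cytoskeleton overlapped between the subsets as well. Sun2, at chr15:79724070-79742536 on the minus strand, was at 9.15, 9.06 and 9.08 in PreNeut and at 9.36, 9.10 and 9.14 in ProNeut. Syne1 was at 9.40, 9.56 and 9.36 against 9.97, 9.71 and 9.43. Sun1, at chr5:139200637-139249840 on the plus strand and encoding the other widely expressed SUN protein, was at 4.64 ± 0.20 and 4.45 ± 0.06 (SD, n = 3). Over the 9 members other than Lmna, differences lay between -0.19 and 0.26. Their unadjusted 95% intervals lay within -1.86 to 2.05 in the fit of all 15 libraries, which shares 1 estimate of spread with the shallow first set, and within -0.44 to 0.52 in the fit of the second set alone.

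**Figure D1:**
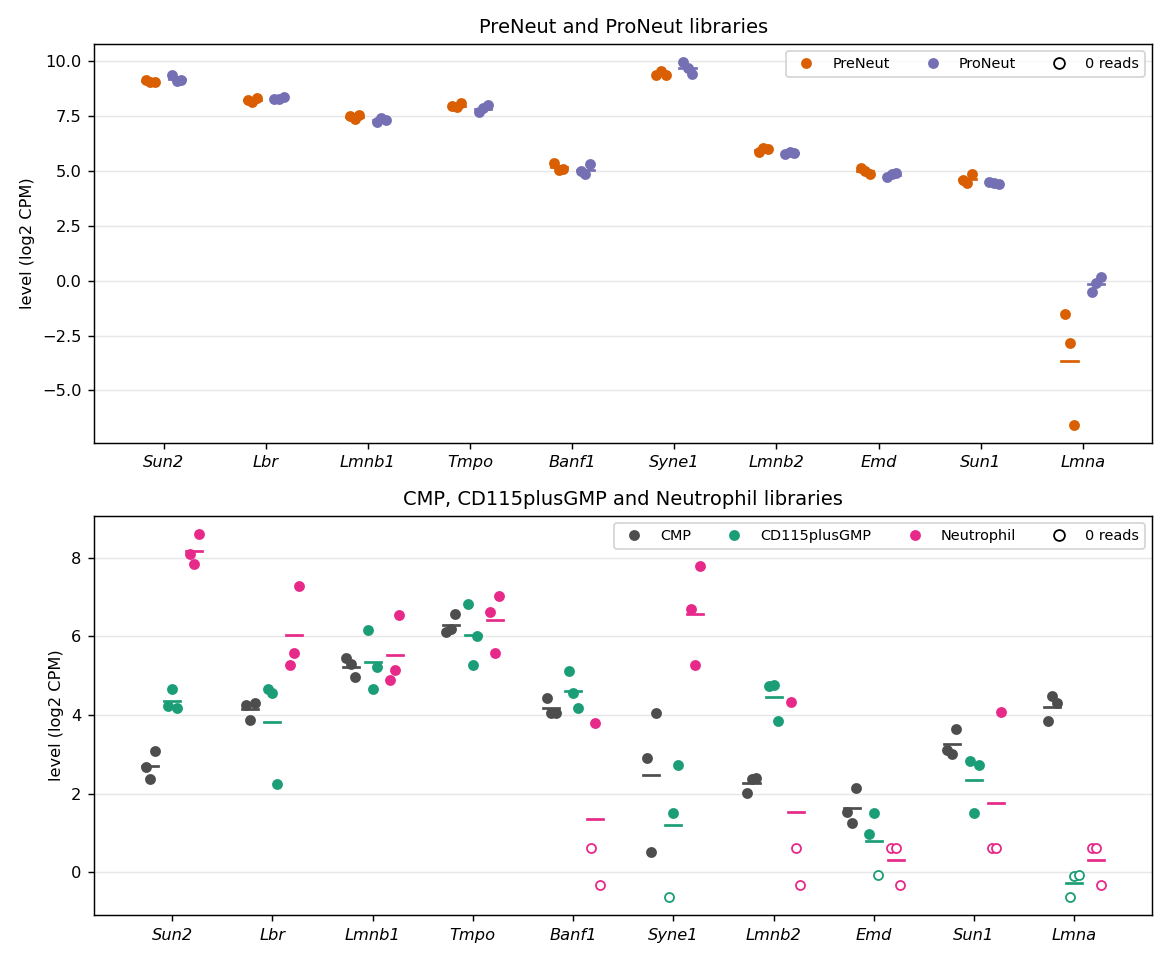
Log2 CPM (y axis) of each member (x axis) in every library, with the second set (PreNeut, ProNeut) above and the first set (CMP, CD115plusGMP, Neutrophil) below on separate axes; points are libraries, horizontal lines are group means of 3, and open points had 0 reads. In the upper panel 9 members overlap between the subsets and Lmna does not; in the lower panel Neutrophil libraries are highest for Sun2, Lbr and Syne1.

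Per kb of exon, a scale on which different genes can be set side by side, the levels in PreNeut ran as follows. Sun2 was highest at a mean log2 CPM per kb of 6.66, followed by Lbr at 5.99 and Lmnb1 at 5.90. Banf1 (4.58), Tmpo (4.53), Syne1 (4.10), Lmnb2 (3.87) and Emd (3.67) came next. Sun1 stood at 1.72 and Lmna at -6.19. Neighbouring levels overlapped between libraries for Lbr with Lmnb1, Banf1 with Tmpo, and Lmnb2 with Emd. The order of the means was the same in ProNeut. It ran from 6.76 for Sun2 through 6.07 for Lbr and 5.75 for Lmnb1 to 1.53 for Sun1 and -2.69 for Lmna. Banf1 (4.48), Tmpo (4.39) and Syne1 (4.36) overlapped between libraries there, so their order in ProNeut is not settled. The exon length joins all annotated transcripts of a gene, 40.49 kb for Syne1, so the level of a gene with short isoforms is understated.

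CD115plusGMP was compared with CMP, both of the first set, to ask what sets the progenitors sorted on CD115 apart. Lmna reads fell to 0 and Sun2 reads rose in CD115plusGMP; these were the 2 of 10 members called, against 12.6% of all genes tested (8.08% higher and 4.56% lower). In the fit of the first set alone 2 members were called, against 9.84%. The median over the members was -0.29, against 0.26 over all genes. The other 8 members did not pass. The log2 values of the groups did not overlap for 4 members and for 39.3% of all genes.

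Lmna had 12, 23 and 24 reads in CMP, or log2 CPM values of 3.85, 4.48 and 4.30, and 0 reads in each CD115plusGMP library. All 3 CMP libraries were above all 3 CD115plusGMP libraries. The difference was -4.47 ± 0.91 (SE, n = 3; limma adjusted p = 0.0031) and, from a floor of 3 reads over the group, at least 11.3-fold lower. Sun2 had 5, 5 and 10 reads in CMP (2.67, 2.38 and 3.08) and 14, 13 and 9 in CD115plusGMP (4.24, 4.67 and 4.18). Its difference was 1.65 ± 0.26 (adjusted p = 0.00033), a read ratio of 3.12 (1.76 to 5.69). With voom weights, which let low counts weigh less, it was 1.65 but not called (adjusted p = 0.16).

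Lmnb2 had 3, 5 and 6 reads in CMP and 20, 14 and 7 in CD115plusGMP, without overlap. Its difference of 2.19 ± 0.81 (SE, n = 3; limma adjusted p = 0.092) did not pass in the fit of all 15 libraries. It was called with 2 reads added to each value in place of 0.5 (1.97, adjusted p = 0.011) and in a fit of these 2 groups alone (adjusted p = 0.0029). Lmnb1 had 116 and 86 reads in CMP and CD115plusGMP, Tmpo 253 and 139, Banf1 55 and 47, and Lbr 55 and 33. These 4 overlapped between the groups, with differences of 0.11, -0.26, 0.44 and -0.32. The sign of the differences of Lbr and Tmpo turned under median centring, that of Lmnb1 under quantile normalization and plain totals, and that of Banf1 under plain totals. Emd had 9 and 2 reads, Sun1 30 and 9 and Syne1 27 and 4, with differences of -0.84, -0.90 and -1.28 that did not pass. Erythroid genes stood apart between these groups, with a summed CPM of 513 to 646 in CMP and 19.0 to 30.1 in CD115plusGMP, where 6 of 11 were at 0 reads and 8 of 11 were called lower. The 14 monocyte and macrophage genes summed to 21.7 to 28.9 in CMP and 320 to 561 in CD115plusGMP, with 8 of 13 tested called higher, and the 4 stroma and endothelium genes to 1.16 to 1.89 and 5.71 to 39.5, with 1 of 3 called higher. The part of these lists in the Lmna and Sun2 differences was not tested.

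Neutrophil was compared with CMP, from the same first set. Sun2, Syne1 and Lbr reads were higher in Neutrophil, and Lmna, Banf1 and Emd reads were lower. These 6 of 10 members were called, against 43.9% of all genes (26.8% higher and 17.1% lower), and in 6 of 10 the libraries did not overlap, against 52.9%. In the fit of the first set alone 5 were called, against 41.9%. The median over the members was -0.30, against 0.60 over all genes. In the Neutrophil libraries 0 reads stood at 0.63, 0.62 and -0.32, against -0.79, -1.08 and -1.31 in CMP. A gene without reads in both groups therefore gets a difference above 0, up to 1.37 in the basophil list. Of that list 1 of 4 tested was called higher, although all 5 genes had 0 reads in Neutrophil. The shares and the median over all genes include such genes, and how many was not counted. Neutrophil libraries held the fewest detected genes, with 7227 to 8266 genes at 0 reads. The summed CPM of 11 erythroid genes was 0 to 9.61 there, with 9 of 11 at 0, and that of 4 B cell genes was 43.3 to 88.8 against 0.947 to 6.44 in CMP. Monocyte and macrophage genes summed to 39.8 to 208 there, with 6 of 13 tested called higher than in CMP and 1 lower. The part of these lists in these differences was not tested.

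Sun2 had 87, 74 and 240 reads in Neutrophil, or 8.08, 7.83 and 8.59, far above the CMP values given above. The difference was 5.46 ± 0.26 (SE, n = 3; limma adjusted p = 1.5e-10) and the read ratio 49.8 (31.8 to 82.4). It was 4.10 to 6.46 under the other scalings and called under each. Syne1 had 6, 1 and 20 reads in CMP (2.91, 0.51 and 4.04) and 33, 12 and 136 in Neutrophil (6.70, 5.26 and 7.77). All Neutrophil libraries were above all CMP libraries. The difference was 4.09 ± 0.84 (adjusted p = 0.00085), with a read ratio of 16.6 (11.1 to 26.0). It was 3.10 without CMP replicate 2, 4.87 without CMP replicate 3, 4.75 without Neutrophil replicate 2 and 3.49 without Neutrophil replicate 3.

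Lbr had 16, 15 and 24 reads in CMP (4.25, 3.88 and 4.30) and 12, 15 and 96 in Neutrophil (5.27, 5.57 and 7.27). Neutrophil replicate 3 stood above the other Neutrophil libraries, and all 3 stood above CMP. The difference of 1.90 ± 0.55 (SE, n = 3; limma adjusted p = 0.011) was not called without Neutrophil replicate 3 (1.28, adjusted p = 0.061), with quantile normalization (0.66) or with plain totals (0.53). At the same place Dnah14 had 405 reads in Neutrophil against 81 in CMP, a difference of 3.65 ± 0.73 (adjusted p = 0.00066). The Lbr share of the reads of both genes was 8.24% to 42.3% in Neutrophil and 35.7% to 47.1% in CMP, and 99.96% to 100% in the second set.

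**Figure D2:**
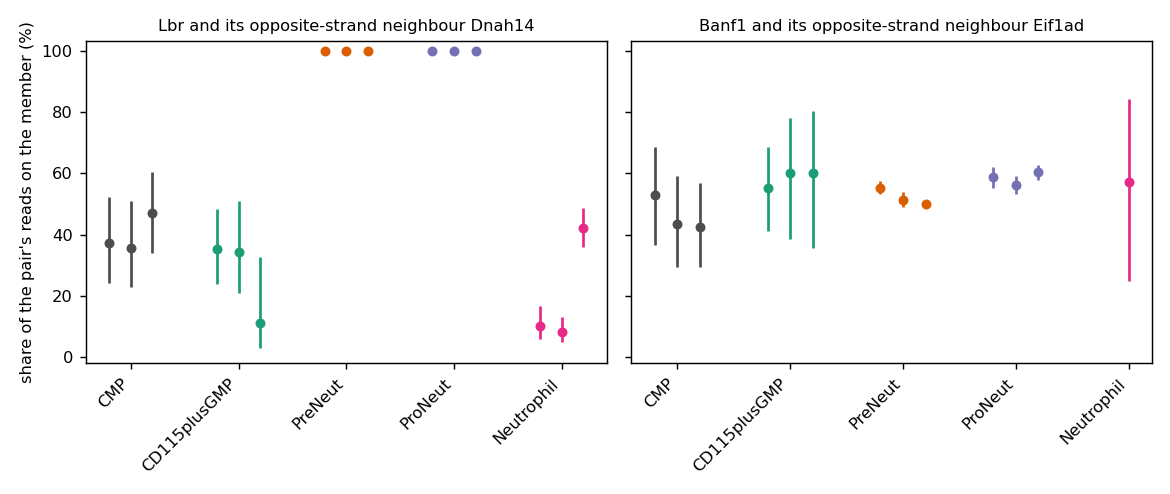
Share of reads (y axis, percent) on Lbr out of Lbr and Dnah14 (left) and on Banf1 out of Banf1 and Eif1ad (right) in each library, grouped by population (x axis); points are libraries with 95% Wilson binomial intervals, and Neutrophil libraries with 0 reads on both genes are left out. The Lbr share is 8.24% to 47.1% in the first set and at least 99.96% in the second, while the Banf1 share stays between 42.6% and 60.3%.

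Lmna had 0 reads in every Neutrophil library against 59 in CMP, at least 7.92-fold lower (fitted difference -3.90 ± 0.91, SE, n = 3; limma adjusted p = 0.0022). Banf1 had 18, 17 and 20 reads in CMP (4.42, 4.05 and 4.04) and 0, 4 and 0 in Neutrophil. The read ratio was 5.54-fold lower (2.04 to 21), and the fitted difference of -2.81 ± 0.73 (adjusted p = 0.0049) was -4.02 without Neutrophil replicate 2, -1.96 without Neutrophil replicate 3 and, not called, -1.80 with median centring. Banf1 shares 428 exon bases with Eif1ad, a gene on the opposite strand, which had 65 reads in CMP and 3 in Neutrophil. Emd had 2, 2 and 5 reads in CMP and 0 in each Neutrophil library, at least 1.21-fold lower. Its call (-1.33 ± 0.50, adjusted p = 0.040) was lost in the fit of the first set alone (adjusted p = 0.17), without CMP replicate 1 (0.063), CMP replicate 3 (0.14) or Neutrophil replicate 3 (0.10), with voom weights (0.11), and with median centring (0.70), and with 2 reads added the difference was 0.10.

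The B-type lamin and LAP2 loci did not pass. Lmnb1 was at 5.44, 5.30 and 4.95 in CMP and at 4.88, 5.14 and 6.55 in Neutrophil, and the groups overlapped. Its difference of 0.29 and that of Tmpo, 0.12, were below 0 with quantile normalization (-0.78 and -0.88) and with plain totals (-1.07 and -1.25, the latter called). With median centring both were called higher (1.3 and 1.12). Lmnb2 had 14 reads in CMP and 6 in Neutrophil, all 6 in replicate 1, and its difference of -0.72 was -2.11 without that library (adjusted p = 0.00094) and -2.08 with plain totals, also called. Sun1 had 30 reads in CMP and 10 in Neutrophil, all 10 in replicate 3, and its difference of -1.48 (adjusted p = 0.11) was -2.63 without that library (adjusted p = 0.00027). It was also called with quantile normalization (-2.99) and plain totals (-2.85).

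Neutrophil was then compared with CD115plusGMP; this comparison shares its libraries with the others of the first set. Sun2, Syne1 and Lbr reads were higher, and Banf1 and Lmnb2 reads lower, so 5 of 10 members were called, against 33.4% of all genes (20.2% higher and 13.2% lower). In 4 of 10 members the libraries did not overlap, against 37.2%. In the fit of the first set alone 5 were called, against 28.7%. The median over the members was 0.28, against 0.32 over all genes. Monocyte and macrophage genes summed to 39.8 to 208 in Neutrophil and 320 to 561 in CD115plusGMP, with 1 of 13 tested called higher and 5 lower. B cell genes summed to 43.3 to 88.8 against 1.88 to 3.90, with 1 of 3 called higher, and stroma and endothelium genes were at 0 against 5.71 to 39.5, with 1 of 3 called lower; their part in the differences was not tested. Sun2 exceeded its CD115plusGMP level by 3.81 ± 0.26 (SE, n = 3; limma adjusted p = 2e-08; read ratio 16, 11.3 to 23.1).

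Syne1 had 0, 1 and 3 reads in CD115plusGMP and 181 in all in Neutrophil. The difference was 5.37 ± 0.84 (adjusted p = 0.0001; read ratio 64.8, 24.9 to 240). It was 4.46 and 6.14 without CD115plusGMP replicates 1 and 3, and 6.03 and 4.77 without Neutrophil replicates 2 and 3. Lbr, with 19, 12 and 2 reads in CD115plusGMP (4.66, 4.56 and 2.25), was higher by 2.21 ± 0.55 in Neutrophil (adjusted p = 0.0049). That was 1.43 without CD115plusGMP replicate 3 and 1.60 without Neutrophil replicate 3, and it was not called with plain totals (1.41) or quantile normalization (1.17). Dnah14 was also higher, by 3.04 ± 0.73 (adjusted p = 0.0036).

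Banf1 had 26, 12 and 9 reads in CD115plusGMP (5.11, 4.56 and 4.18). The difference to Neutrophil was -3.25 ± 0.73 (SE, n = 3; limma adjusted p = 0.0022; read ratio 8.20-fold lower, 3.0 to 31.3), at -4.46 and -2.41 without Neutrophil replicates 2 and 3. Lmnb2 was lower at -2.91 ± 0.81 (adjusted p = 0.0097), although Neutrophil replicate 1, at 4.33, lay within the CD115plusGMP range. The call was lost without Neutrophil replicate 3 (-1.97, adjusted p = 0.053) and with median centring (-2.26, adjusted p = 0.066), and the value was -4.30 without replicate 1. Lmna had 0 reads in both groups, and Emd 2 and 0. The differences of Lmnb1 (0.18), Tmpo (0.38) and Sun1 (-0.59) did not pass, and each changed sign under another scaling. Without Neutrophil replicate 3, Sun1 was called at -1.73 (adjusted p = 0.0076).

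**Figure D3:**
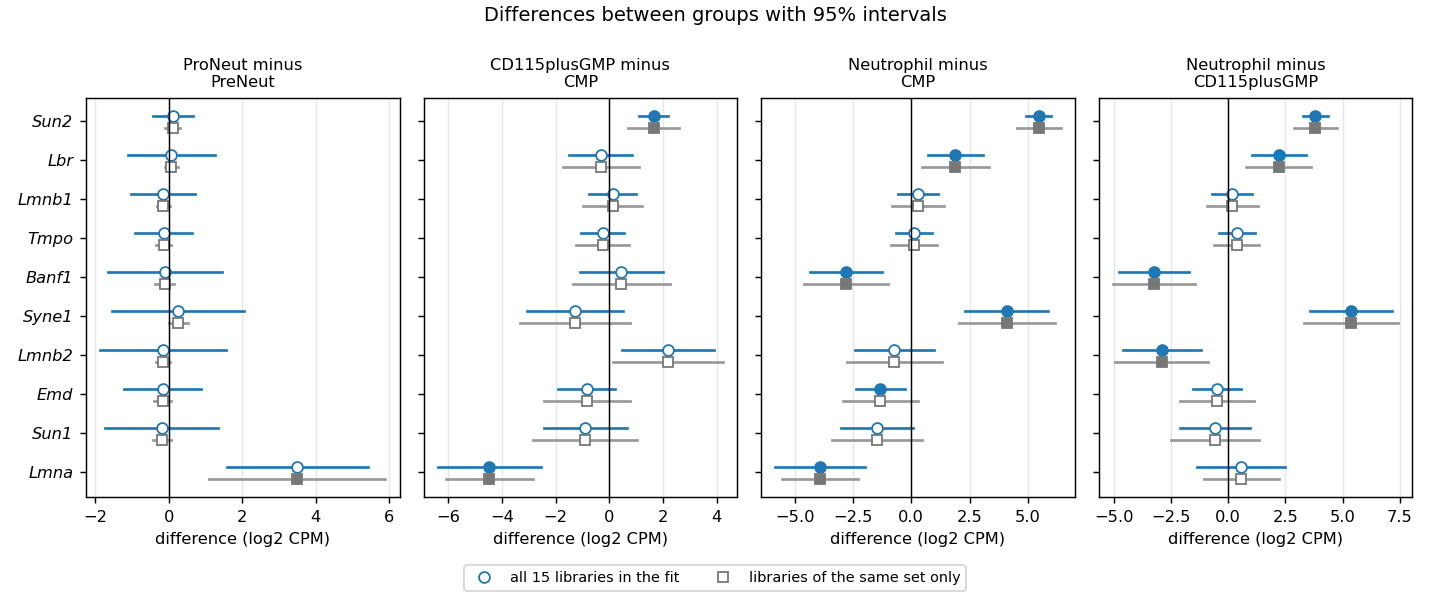
Difference in log2 CPM (x axis) for each member (y axis) in the 4 comparisons within a set, with 95% intervals; circles are the fit of all 15 libraries, squares the fit of the same set only, and filled symbols were called in that fit. The intervals are not adjusted for the number of genes. Sun2, Syne1 and Lbr lie to the right in both Neutrophil comparisons and Banf1 to the left, while in ProNeut against PreNeut 9 members lie close to 0.

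Ordered by mean log2 CPM within the first set, only Sun2 had neighbouring groups that all differed by a called amount, from CMP (2.71) through CD115plusGMP (4.36) to Neutrophil (8.17). For Lbr and Syne1, Neutrophil was above CMP, and CMP and CD115plusGMP did not differ beyond their spread. For Lmna, CMP was above Neutrophil and CD115plusGMP, which were both at 0 reads. For Banf1, CD115plusGMP and CMP did not differ beyond their spread and both were above Neutrophil. For Lmnb1, Lmnb2, Emd, Sun1 and Tmpo no neighbouring groups differed by a called amount.

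Differences between members within a library do not depend on how that library was scaled, although the 0.5 reads added still matter where a gene had 0 reads. In the first set the strand of a member's reads was not measured, so its exon length may be the wrong scale there. On log2 CPM per kb, Sun2 minus Sun1 was -0.06 ± 0.09 (SD, n = 3) in CMP, 2.49 ± 1.0 in CD115plusGMP and 6.88 ± 1.63 in Neutrophil, without overlap between these groups. It was 4.94 ± 0.21 in PreNeut and 5.23 ± 0.10 in ProNeut, again without overlap. Sun1 had 0 reads in 2 Neutrophil libraries. Each of these 4 within-set comparisons had an exact permutation p of 0.1 (2-sided, 0.13 adjusted over 20 tests), the smallest that 3 against 3 libraries can give.

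Lbr minus Lmna was 0.23 ± 0.50 in CMP (SD, n = 3), on 55 and 59 reads. Dnah14 had 81 reads there, so this value does not show like levels of the Lbr and Lmna transcripts. Lbr minus Lmna was 4.38 ± 1.56 in CD115plusGMP and 6.02 ± 1.62 in Neutrophil, where Lmna had 0 reads, so these values grow with depth. In the second set Lbr minus Lmna was 12.2 ± 2.67 in PreNeut and 8.75 ± 0.32 in ProNeut. The PreNeut values were 10.1, 11.3 and 15.2, with Lmna at 9, 3 and 1 reads, the last in the deepest library. Lmnb1 minus Lmnb2 was 2.03 ± 0.18 in PreNeut and 2.03 ± 0.03 in ProNeut, 3.5 ± 0.43 in CMP, 1.43 ± 0.86 in CD115plusGMP and 4.51 ± 3.20 in Neutrophil. Over all 20 tests the exact permutation p was 0.1 or higher.

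**Figure D4:**
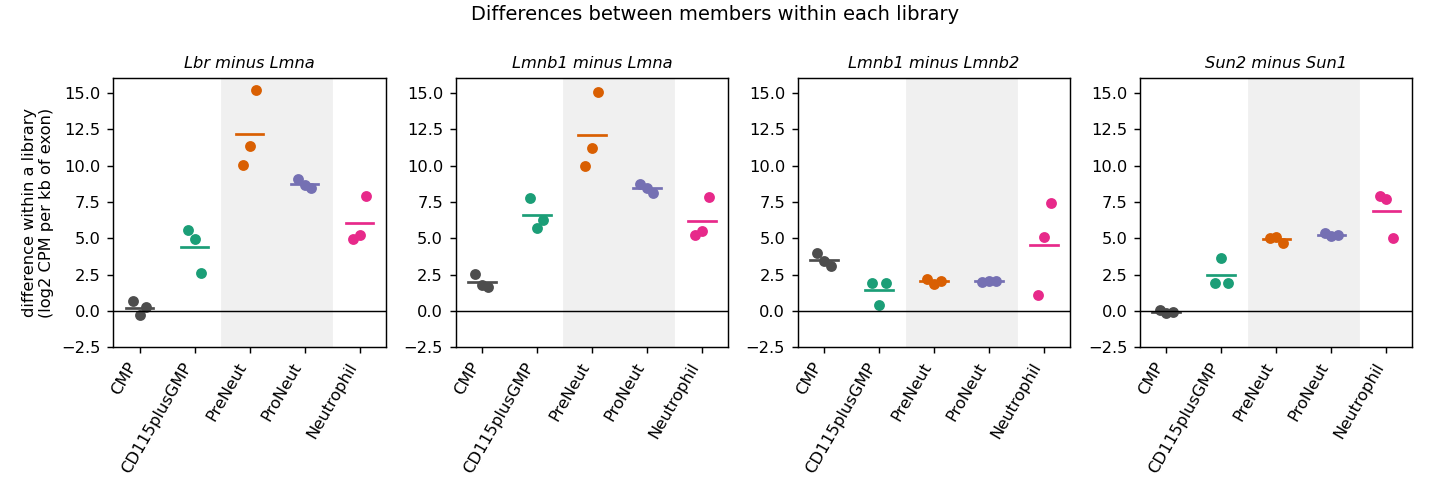
Difference between members within each library (y axis, log2 CPM per kb of exon) by population (x axis) for Lbr minus Lmna, Lmnb1 minus Lmna, Lmnb1 minus Lmnb2 and Sun2 minus Sun1; points are libraries, lines are means of 3, and the shaded groups form the second set. Sun2 minus Sun1 runs from -0.06 in CMP to 6.88 in Neutrophil. Within the second set Lbr minus Lmna is 12.2 in PreNeut, on 13 Lmna reads in all, and 8.75 in ProNeut.

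Between the sets, only the rank of a gene within its library was compared, as the percentile among the genes tested. Ranks do not remove the difference between the sets in which strand's genes took the reads. Where members did not overlap, the second set stood higher in both comparisons. Set and group cannot be told apart here, and the part of the strand in these ranks was not tested. From CD115plusGMP to PreNeut, 8 of 10 members stood higher without overlap, against 40.6% of all genes higher, 27.6% lower and 68.2% in either direction. Syne1 was at the 12.5 to 63.1 percentile in CD115plusGMP and the 99.7 to 99.8 percentile in PreNeut. Emd was at 18.4 to 45.3 and 77.3 to 81.6. Lmna (12.5 to 19.4 and 16.1 to 23.2) and Banf1 (80.9 to 85.8 and 80.2 to 83.8) overlapped. Lmna had 0 reads in every CD115plusGMP library, so its percentile there is the shared rank of genes at 0 reads. From ProNeut to Neutrophil, 10 of 10 members stood lower without overlap, against 41.1% of all genes lower, 30.1% higher and 71.2% in either direction. That count was 9 among genes with a symbol only, and 9 with the filter at a log2 CPM above 1. Sun2 differed least, at 99.5 to 99.7 in ProNeut and 93.5 to 96.4 in Neutrophil. Emd differed most, at 76.5 to 78.8 and 23.3 to 27.1, but Emd and Lmna had 0 reads in every Neutrophil library. The range of 23.3 to 27.1 is the shared rank of genes at 0 reads, set by how many such genes a library held. In Neutrophil, Banf1 had 0, 4 and 0 reads, Lmnb2 6, 0 and 0, and Sun1 0, 0 and 10. The exact permutation p of a single member was 0.1 at the lowest, the smallest that this design allows.

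**Figure D5:**
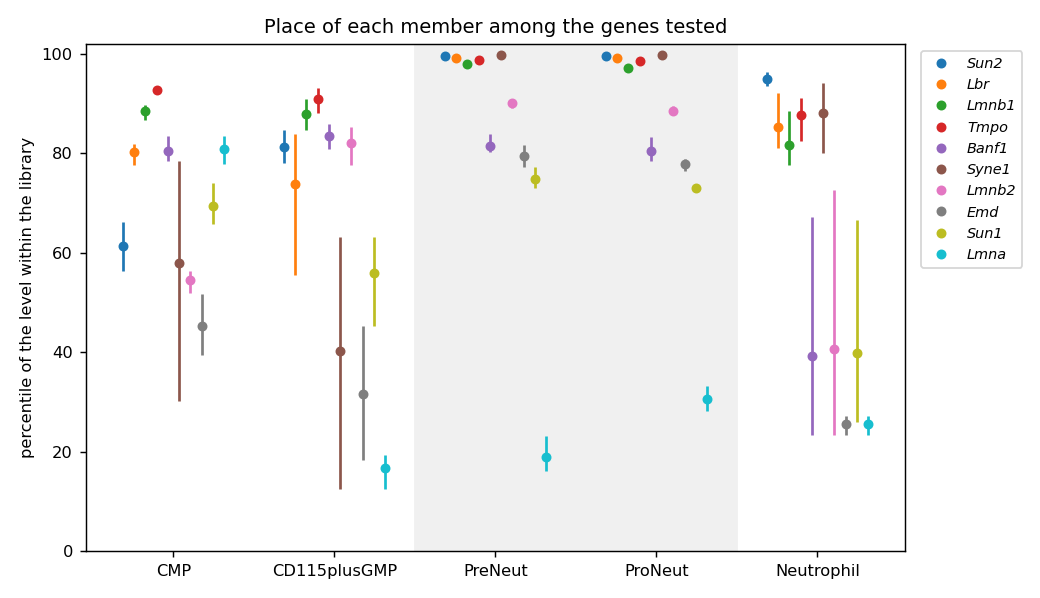
Percentile of the log2 CPM within the library among 14161 genes tested (y axis) for each member (colours) in each population (x axis); points are means of 3 libraries, vertical lines run from the lowest to the highest library, and the shaded groups form the second set. Sun2, Syne1 and Lbr stand at the 99 percentile or above in PreNeut and ProNeut, and Lmna is lowest in every group but CMP and Neutrophil, where in Neutrophil it shares the place of 0 reads with Emd.

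Other genes of the envelope were taken from lists by function. In ProNeut against PreNeut none of the envelope lists held a called gene in the fit of all 15 libraries, against 2.26% of all genes tested. The median difference over all genes was 0.07. In the fit of the second set alone 4 of their genes were called, against 6.38% of all genes tested. These were Tmem38a and Msmo1, higher, and Suv39h2 and Nup43, lower, named after their values were seen. The 31 nuclear pore genes had a median of -0.33, with 4 above 0 and 1 at an unadjusted p under 0.05, Nup43 of the Y-complex (-1.70 ± 0.45, SE, n = 3; limma adjusted p = 0.070). The 13 other inner nuclear membrane genes had a median of 0.00 and the 9 other LINC and torsin genes one of 0.14. The 6 genes of lamin farnesylation and processing had differences of -0.23 to 0.24. Of these, Zmpste24, the protease that cuts prelamin A, stood at 8.02 in PreNeut and 8.27 in ProNeut. The 12 heterochromatin partners had a median of -0.38. Among them Cbx5, which encodes HP1 alpha, a ligand of lamin B receptor, was at 7.39 and 6.76 (-0.63 ± 0.72).

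In CD115plusGMP against CMP, with a median of 0.26 over all genes, few of these genes were called, and over all genes 8.08% were called higher and 4.56% lower. Of 13 other inner membrane genes 2 were higher, Nrm, the nurim gene (95 reads against 19, ratio 8.67, 5.26 to 15), and Tmem43, the LUMA gene (22 against 2, ratio 19.1, 4.69 to 167). Of 9 LINC and torsin genes 1 was higher, the torsin gene Tor1b (2.11 ± 0.31, SE, n = 3; limma adjusted p = 0.00023). Of 31 nuclear pore genes 2 were lower and 0 higher.

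In Neutrophil against CMP the median over all genes was 0.60, and 26.8% of them were called higher and 17.1% lower. As stated above, these values include genes without reads in both groups. Of 31 nuclear pore genes 16 were lower and 0 higher (median -1.79), and 12 had 0 reads in Neutrophil, among them Nup88 (66 in CMP, at least 8.86-fold lower) and Nup210 (33 in CMP, at least 4.43-fold lower). The 9 LINC and torsin genes had a median of 1.37, the same as the highest value of the basophil list. How far their calls rest on the value given to 0 reads was not tested. Tor1aip1, called at 1.03, changed sign with quantile normalization and plain totals. Of these 9 genes 5 were higher and 0 lower. They include Tor1a, the torsin A gene (2.74 ± 0.49, SE, n = 3; limma adjusted p = 0.00027), and Tor1aip2, whose product LULL1 activates torsins (2.73 ± 0.23; adjusted p = 8.6e-08). Of 13 other inner membrane genes 6 were higher and 2 lower, with Nrm at 760 reads against 19 (6.99 ± 0.45; 7.63 without CMP replicate 3).

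Of 6 farnesylation and processing genes 2 were higher and 1 lower, near the shares of 26.8% and 17.1% over all genes. Fntb, the farnesyltransferase beta subunit gene, had 248 reads in Neutrophil, 65 in CMP and 10 in CD115plusGMP, and differed from CMP by 3.39 ± 0.51 (SE, n = 3; limma adjusted p = 4.5e-05). Zmpste24 was higher by 2.46 ± 0.77 (adjusted p = 0.017), a call lost without CMP replicate 2 or 3 or Neutrophil replicate 3 (adjusted p = 0.050, 0.060 and 0.086), with voom weights, quantile normalization and plain totals. Of 12 heterochromatin partners 2 were higher and 6 lower, with Suv39h2, a histone H3 lysine 9 methyltransferase gene, at 3.17 ± 0.43 (adjusted p = 1.4e-05) and Cbx5 at -4.11 ± 0.72 (adjusted p = 0.00021; -5.32 and -3.27 without Neutrophil replicates 2 and 3). Nrm, Tor1aip2 and Suv39h2 share exon bases with a gene on the opposite strand.

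Genes of the cell cycle, during which the envelope is taken down and rebuilt, were counted beside these. Of 21 mitosis genes 18 were lower and 1 higher in Neutrophil than in CMP, and of 22 DNA replication genes 20 were lower and 1 higher, beside 17.1% lower and 26.8% higher over all genes. In ProNeut against PreNeut 0 of 21 mitosis genes were called (0 at an unadjusted p under 0.05) and 7 of 22 DNA replication genes were lower, beside 0.417% of all genes. Against CD115plusGMP, Neutrophil had 12 of 31 nuclear pore genes lower and 0 higher (median -1.02, against 0.32 over all genes). It had 3 of 9 LINC and torsin genes higher and 0 lower, beside 20.2% higher and 13.2% lower over all genes. Of 21 mitosis genes 16 were lower and 1 higher in that comparison. The higher one was Mki67, with 2384 reads against 257 (3.9 ± 0.25, SE, n = 3, limma adjusted p = 1.2e-08). These first-set values are again reads at a locus, and their strand was not measured.

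The genes whose pattern was most like that of a member were found by Pearson r over the 15 libraries, each centred on the mean of its set, among 2820 genes. For Lbr they were Zmpste24 (r = 0.97), Sf1 (0.95), Rgp1 (0.95), Srf (0.95) and Sri (0.94). For Lmnb1 they were Mdh1 (0.92), Ube2m (0.88), Pcbp1 (0.87), Clptm1 (0.87) and Klhl9 (0.86). For Lmna, with 0 reads in every CD115plusGMP and Neutrophil library, they reached no more than 0.73 (Wdr81), followed by Trim8 (0.71), Sugp2 (0.71), Ctse (0.70) and Inpp5e (0.68). Between members, Sun2 and Syne1 had an r of 0.78, Sun2 and Lbr 0.74, and Syne1 and Banf1 -0.86. The libraries share depth and scaling within a group, so these values are a description only.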

How the data were processed

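Per the labels, the kit was Universal Plus mRNA-Seq from Nugen, and each of 5 sorted populations gave 3 libraries. The authors deposited 1 table of log2 CPM values. The tools named are edgeR 1.30.5, featureCounts 1.22.2 and FastQC 0.11.7, with the build GRCm38 (mm10), per the submitters' processing notes. Which aligner, strand setting and annotation were used is not given in the sources used here. Undoing the log2 in the deposited table gave whole reads plus 0.5, times 1 step per library, for 100% of values (tolerance 0.001 reads), and these recovered reads were used for ratios. They cover the genes of the table. The deposited values imply library sizes of 0.254 to 0.908 times the table total in the first set and 1.93 to 2.24 times in the second.

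Group means were fitted to the log2 values of all 15 libraries with limma 3.58.1 (R 4.3.3; eBayes with trend), with 2-sided p-values adjusted by Benjamini-Hochberg over 14161 genes. Read ratios were scaled by implied library size, with exact 95% intervals; these and the floor of 3 reads over a group cover counting error only. Cross-set comparisons used percentiles. Alternatives were other scalings, filters, 2 reads added, no trend, voom weights, fewer groups, a replicate block and leaving out each library. Scripts were tested on simulated data. Positions and exon lengths came from GENCODE M21, to which 14054 genes were matched; promoter windows came from RefSeq.

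The rule for the members uses no measured value, but the members and lists were chosen with earlier results of these data known. Named are all members, their opposite-strand partners, up to 4 genes per list and comparison with the largest differences (called ones first, mean log2 CPM of at least 2 in the higher group), and the 5 genes most like Lbr, Lmna and Lmnb1 with a mean of at least 3 in both sets. No library was left out, and replicates of every group differed by more than sampling noise. Same-numbered libraries were not treated as pairs.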

Additional observations from a re-analysis of the deposited data

How the results depend on the processing

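Over the 40 member differences within a set, alternatives other than leaving out a library gave 391 values with the same direction and side of the threshold, 13 that became called, 12 that lost a call and 24 that changed sign. Other filters, no trend, fewer groups and the replicate block keep the fitted difference, so they could change a call but not a sign. In ProNeut against PreNeut the second set alone and the 2 groups alone are the same fit, counted under both names. In ProNeut against PreNeut, where 320 genes were called, 126 were with quantile normalization, 186 with median centring, 607 with 2 reads added, 1363 with voom weights and 903 in the second set alone, which are also the 2 groups compared; members called were 1 in each of the last 3 and 0 otherwise. With 1 library left out, 195 to 405 genes and 0 to 1 members were called. In CD115plusGMP against CMP, 2689 genes were called with quantile normalization against 1790, and 1 member with voom weights against 2. Called genes that were higher made up 81.6%, 63.9%, 61.0% and 60.5% in the 4 comparisons in the order of the report. Quantile normalization gave 62.7%, 52.8%, 47.5% and 44.9%, median centring 89.8%, 81.0%, 83.2% and 78.6%, and plain totals 73.2%, 33.5%, 29.2% and 36.6%. The median over all genes shifted most in Neutrophil against CMP, by 1.0 with median centring and -1.36 with plain totals.

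Signs changed as follows, and the cause was not tested. In ProNeut against PreNeut, Lbr was at -0.0761 and Sun2 at -0.0837 with quantile normalization, and Lbr at -0.0122 with plain totals. In CD115plusGMP against CMP, Lbr was at 0.0324 and Tmpo at 0.0923 with median centring, Lmnb1 at -0.0426 with quantile normalization and -0.44 with plain totals, and Banf1 at -0.11 with plain totals. In Neutrophil against CMP, Lmnb1 was at -0.78 and -1.07, Tmpo at -0.88 and -1.25 and the torsin partner gene Tor1aip1 at -0.17 and -0.33 with quantile normalization and plain totals, Lmnb2 at 0.28 with median centring and 0.33 with 2 reads added, and Emd at 0.10 with 2 reads added. In Neutrophil against CD115plusGMP, Lmnb1 was at -0.74 and -0.63 and Tmpo at -0.50 and -0.43 with quantile normalization and plain totals, Lmna at -0.24 with plain totals, and Emd at 0.16 and 0.18 and Sun1 at 0.0653 and 0.19 with median centring and 2 reads added. Lmnb1 minus Lmnb2 in ProNeut against PreNeut was -0.000202 with 2 reads added.

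With 1 library left out, ranges that crossed 0 were, in CD115plusGMP against CMP, -0.74 to 0.47 for Lbr, -0.29 to 0.45 for Lmnb1 and -0.65 to 0.12 for Tmpo. In Neutrophil against CMP they were -0.22 to 0.61 for Lmnb1, -2.11 to 0.21 for Lmnb2 and -0.20 to 0.53 for Tmpo, and in Neutrophil against CD115plusGMP -0.33 to 0.58 for Lmnb1 and -0.00324 to 0.79 for Tmpo. Within libraries they were -1.22 to 0.19 for Lmnb1 minus Lmna in Neutrophil against CD115plusGMP, -0.0962 to 0.083 for Lmnb1 minus Lmnb2 in ProNeut against PreNeut and -0.43 to 2.73 for the same pair in Neutrophil against CMP. The replicate block gave 285, 1680, 6106 and 4712 called genes against 320, 1790, 6212 and 4726. Correlations of same-numbered libraries were -0.053 to 0.072 in the first set and 0.083, 0.054 and 0.145 in the second. Those of differently numbered libraries were -0.081 to 0.095 and -0.13 to 0.090. With 3 libraries per group these values do not settle whether the numbers mark pairs. Emd in Neutrophil against CMP, at a limma adjusted p of 0.053, was the 1 member that lost its call under the block. Depth limits Lmna, Emd, Banf1, Lmnb2 and Sun1 in the first set, where groups held 59 reads or fewer of each.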
